A study of Mus musculus with 2 samples.

Results

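The 10 genes described here are transcription factors and mRNA regulators that are known for holding lymphocytes at rest or, in the case of Zfp318, for the making of Ighd mRNA. They are Klf2, Klf3, Klf6, Klf13, Foxp1, Btg1, Btg2, Tob1, Satb1 and Zfp318, chosen by name out of 31053 genes in the tables. They were followed in droplets with at least 2000 gene UMIs (molecular barcodes that count captured mRNA molecules), at most 10% of UMIs from mitochondrial genes and at least 1 UMI of Cd79a, which encodes a signaling chain of the B cell receptor. This left 2077 droplets of the neonatal library and 3611 droplets of the adult library, out of 3208 and 5687 droplets with at least 500 gene UMIs. The neonatal library came from C57BL6/J wild-type mice labeled 2 weeks old (the sample title gives 15 days), males and females pooled, and the adult library from male C57BL6/J wild-type mice 8 weeks old. In each, the hearts of 6 mice were pooled, and live CD45+ B cells, with both ages sorted on the same day, were sequenced from the 3′ end of the mRNA. The study asked how the B cells of the heart differ between these ages. With 1 library per age there was no test across samples: no p-value is given, each 95% interval is exact and covers counting error only, and a difference between the ages cannot be told apart from a difference between the libraries or, in part, between the sexes.

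The droplets summed to 16403180 gene UMIs in the neonatal library (median 6000 per droplet) and 34623240 in the adult library (median 6131). All 6 B cell markers were found in both libraries, and at least 3 of them, at a depth of 2000 UMIs, in 92.8% of neonatal and 91.6% of adult droplets. At least 3 of 8 macrophage markers were seen in 7 neonatal droplets and 1 adult droplet, at least 3 of 8 T or NK cell markers in 1 and 5, and at least 3 of 6 erythroid markers in 0 and 0. The summed level of the macrophage markers was 92.1 CPM (UMIs of a gene per 1000000 gene UMIs) in the neonatal and 17.1 CPM in the adult library. Droplets of low rank, taken to hold free RNA, averaged 55.9 (neonatal) and 92.0 (adult) UMIs. Only 2 barcodes passed the rule in both libraries. Levels below are UMIs summed over these droplets, in CPM, and ratios are log2 adult over neonatal, with conditional binomial 95% intervals. Across the 10703 genes that had 50 UMIs or more, the median ratio was -0.13, and ratios are to be read against that shift.

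A resting lymphocyte is kept small and out of the cell cycle by an active program. Kruppel-like factors such as KLF2 and forkhead factors such as FOXP1 and FOXO1 bind DNA in resting cells, and KLF2 also keeps genes of egress and homing active. BTG1, BTG2 and TOB1 bind the CCR4-NOT complex, which shortens the poly(A) tails of mRNAs. IgM and IgD come from the same heavy chain locus: a long precursor RNA that runs through the Ighm exons into the Ighd exons is processed into either mRNA, and ZFP318 is needed for the Ighd form. In the mouse, mature follicular B cells carry much IgD, while immature, marginal zone and B1 cells carry little.

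The stretches before the start sites of 4 members are shown because Btg2, Klf2 and Klf6 were the members past 1.5-fold in both libraries, over all depths, between droplets with many and few immediate-early transcripts, and because Zfp318 is the member tied to Ighd. Each is the 250 bases upstream of the RefSeq start in the build GRCm38.p6, 5′ to 3′ on the strand of the gene, from chr1:134079156-134079405 (minus strand) for Btg2, chr8:72318812-72319061 (plus) for Klf2, chr13:5861239-5861488 (plus) for Klf6 and chr17:46383516-46383765 (plus) for Zfp318. Capitals mark TGACGTCA, the cAMP response element (CRE), in Btg2 and its shorter core TGACG in Klf2. They mark the E-box CACGTG in Klf6, and the GC box GGGCGG and the CACCC box in Zfp318, each on either strand.
Btg2: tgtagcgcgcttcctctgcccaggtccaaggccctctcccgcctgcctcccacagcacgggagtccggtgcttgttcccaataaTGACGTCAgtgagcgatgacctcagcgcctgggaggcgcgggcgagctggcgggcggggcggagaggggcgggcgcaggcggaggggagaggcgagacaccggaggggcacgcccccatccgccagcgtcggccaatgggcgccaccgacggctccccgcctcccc
Klf2: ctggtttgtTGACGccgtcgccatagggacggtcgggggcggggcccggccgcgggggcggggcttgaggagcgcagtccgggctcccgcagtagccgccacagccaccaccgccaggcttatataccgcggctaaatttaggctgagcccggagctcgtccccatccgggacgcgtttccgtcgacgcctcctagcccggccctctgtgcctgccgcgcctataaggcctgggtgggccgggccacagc
Klf6: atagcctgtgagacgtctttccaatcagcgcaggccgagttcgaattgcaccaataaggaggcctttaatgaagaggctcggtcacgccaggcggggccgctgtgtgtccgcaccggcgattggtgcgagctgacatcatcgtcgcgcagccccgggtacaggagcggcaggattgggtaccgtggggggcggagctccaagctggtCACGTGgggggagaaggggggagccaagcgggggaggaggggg
Zfp318: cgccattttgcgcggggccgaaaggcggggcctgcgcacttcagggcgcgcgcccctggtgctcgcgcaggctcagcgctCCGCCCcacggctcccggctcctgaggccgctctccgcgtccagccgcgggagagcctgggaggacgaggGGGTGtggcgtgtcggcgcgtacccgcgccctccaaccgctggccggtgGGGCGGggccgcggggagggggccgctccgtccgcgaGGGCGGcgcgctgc
The full CRE was present in the upstream stretch of 1 of the 10 members, Btg2, 166 bases before its start, and in 1.55% of 32851 upstream stretches of all genes. TGACG, which the full CRE also contains, was found in 6 of the 16 upstream stretches of the members (those of Btg2, Foxp1, Klf13, Klf2, Btg1 and Tob1) and in 17.8% of all stretches. The GC box, which KLF and SP proteins can bind, was found in 11 of the 16 member stretches, with at least 1 for each of the 10 members, and in 32.7% of all stretches. The CACCC box was found in 11 of 16, from 7 members, and in 52.0% of all. The E-box was found for Klf6 alone among the members (6.02% of all). The CArG box of serum response factor (1.47% of all) and the ETS core CCGGAAG (6.91% of all) were not in these windows for any of the 16 member start sites. These matches describe letters only.

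**Figure D1:**
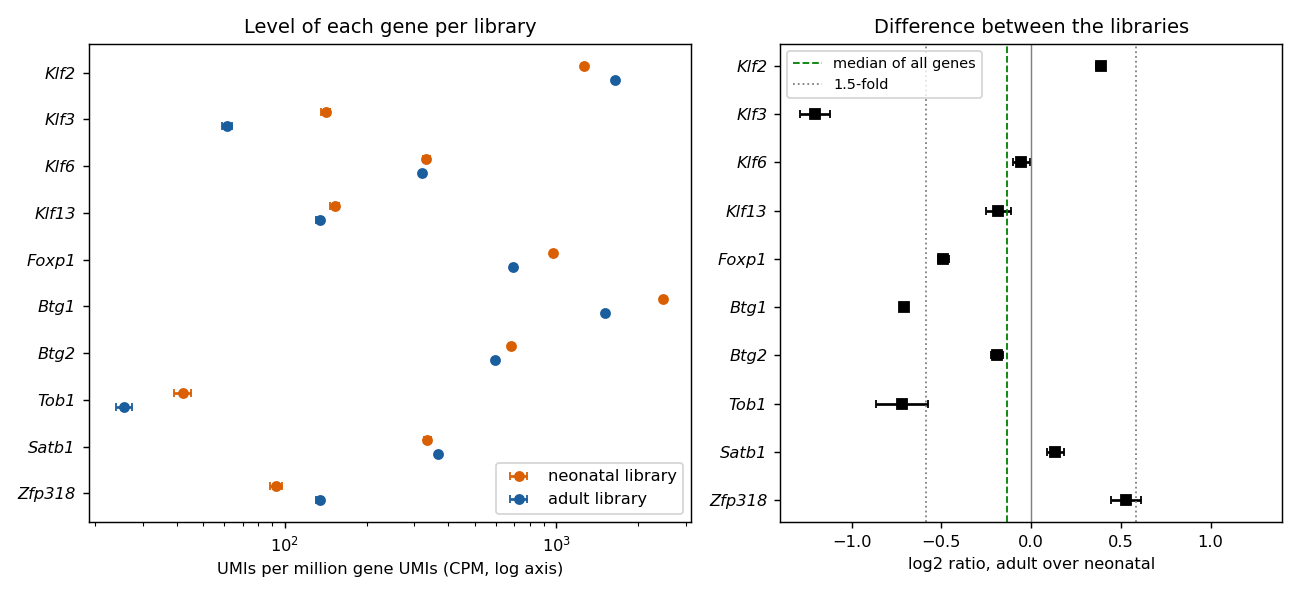
Left, the level of each of the 10 genes in the neonatal and adult library in CPM on a log axis, with exact Poisson 95% intervals. Right, the log2 ratio of adult over neonatal with its 95% interval, the median of all genes (dashed, -0.13) and 1.5-fold (dotted): Klf3, Btg1 and Tob1 lie beyond 1.5-fold lower in the adult library and no gene beyond 1.5-fold higher.

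Among the Kruppel-like factors, Klf2 was higher and Klf3 lower in the adult library. Klf2 (ENSMUSG00000055148, chr8:72319033-72321656, plus strand, by the GENCODE annotation of GRCm38), the factor most tied to lymphocyte rest and recirculation, had 1261 CPM (1244 to 1279) in the neonatal and 1649 CPM (1635 to 1662) in the adult library, a log2 ratio of 0.39 (0.36 to 0.41). Klf3 (ENSMUSG00000029178, chr5:64803388-64832901, plus), a repressor of transcription with a role in marginal zone B cell development, had 141 CPM (136 to 147) and 61.3 CPM (58.8 to 64.0), a log2 ratio of -1.20 (-1.29 to -1.12). That is 2.30-fold higher in the neonatal library, the widest gap among the members and lower than the ratio of all but 2.63% of genes. At an equal depth of 2000 UMIs a Klf3 UMI was present in 23.1% of neonatal droplets (Clopper-Pearson 21.3 to 24.9%) and 10.6% of adult droplets (9.59 to 11.6%), and as sequenced in 51.3% and 31.7%. Klf6 (ENSMUSG00000000078, chr13:5861482-5870394, plus), a broadly expressed factor that responds early to stimuli, was nearly level, with 332 CPM and 320.0 CPM, a log2 ratio of -0.06 (-0.10 to -0.01) that turned positive under 6 of 18 alternative settings (-0.12 to 0.19). Klf13 (ENSMUSG00000052040, chr7:63886351-63938915, minus), described as a regulator of chemokine and survival genes in T cells, had 153 CPM and 135 CPM, a ratio of -0.18 (-0.25 to -0.11), close to that of the median gene.

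Foxp1 was lower and Satb1 slightly higher in the adult library. Foxp1 (ENSMUSG00000030067, chr6:98925338-99522721, minus), a forkhead repressor needed for early B cells and for the rest of naive lymphocytes, had 971 CPM (956 to 986) in the neonatal and 691 CPM (683 to 700.3) in the adult library, a log2 ratio of -0.49 (-0.52 to -0.46). Gene models that overlap Foxp1 on the same strand held 5487 UMIs of their own over both libraries, so part of its reads may have been split. Satb1 (ENSMUSG00000023927, chr17:51736187-51833290, minus), which organizes chromatin loops in lymphocytes, had 335 CPM (326 to 344) and 368 CPM (362 to 374). Its log2 ratio of 0.13 (0.09 to 0.18) was above that of 75.4% of genes, but it was -0.01 with the stricter UMI minimum set per library. At an equal Ighd share, not matched for depth, it was between -0.93 and -0.10, and at matched depth between -0.09 and 0.66.

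Of the BTG and TOB members, Btg1 and Tob1 were lower in the adult library, and Btg2 lay close to the median gene. Btg1 (ENSMUSG00000036478, chr10:96617006-96622809, plus), which with Btg2 keeps naive T cells at rest, had 2467 CPM (2443 to 2491) in the neonatal and 1508 CPM (1495 to 1521) in the adult library, a log2 ratio of -0.71 (-0.73 to -0.69), or 1.64-fold higher in the neonatal library. The median droplet held 25.8 Btg1 UMIs per 10000 among neonatal and 15.9 among adult ones, with interquartile ranges of 16.9 to 36.8 and 9.40 to 23.9. Btg2 (ENSMUSG00000020423, chr1:134075170-134079120, minus), a target of p53 and of growth factor signals, had 681 CPM and 597 CPM, a ratio of -0.19 (-0.22 to -0.16). Tob1 (ENSMUSG00000037573, chr11:94211454-94215495, plus), a larger protein of the same antiproliferative family, was sparse, with 42.1 CPM (39.0 to 45.3) and 25.6 CPM (23.9 to 27.3), a ratio of -0.72 (-0.86 to -0.57). A Tob1 UMI was found in 8.28% of neonatal and 5.84% of adult droplets at 2000 UMIs, and in 23.4% and 18.8% as sequenced.

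Zfp318 and Ighd were both higher in the adult library. Zfp318 (ENSMUSG00000015597, chr17:46383731-46420920, plus), the zinc finger protein that Ighd mRNA depends on, had 93.2 CPM (88.6 to 98.0) in the neonatal and 134 CPM (131 to 138) in the adult library, a log2 ratio of 0.53 (0.44 to 0.61) that was above that of 91.1% of genes. At 2000 UMIs a Zfp318 UMI was present in 15.9% of neonatal droplets (14.4 to 17.6%) and 24.2% of adult droplets (22.8 to 25.7%), and as sequenced in 40.1% and 53.4%. Free RNA at the mean of near-empty droplets would give a Zfp318 UMI in 0.114% and 0.286% of thinned droplets. Thinned alike, none of the 7 neonatal droplets with macrophage markers (median 16568 UMIs as sequenced) had a Zfp318 UMI, 1 each had a Satb1 and a Tob1 UMI, 3 a Klf3 UMI, 5 a Klf2 UMI and 7 a Btg1 UMI. Those droplets also held Cd79a by the rule, so they are no clean background. Ighd (ENSMUSG00000104213, chr12:113406604-113416324, minus), whose 5′ end lies 2234 bases beyond the 3′ end of Ighm, had 473 CPM and 714 CPM, a log2 ratio of 0.60 (0.56 to 0.63). Ighm (ENSMUSG00000076617, chr12:113418558-113422730, minus) had 4482 CPM and 3245 CPM, a ratio of -0.47 (-0.48 to -0.45).

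Of the 10 members, 0 were at least 1.5-fold higher in the adult library, where 7.82% of all 10703 genes were, and 3 (Klf3, Btg1 and Tob1) were at least 1.5-fold lower, where 12.2% were. The median ratio of the members was -0.19. Over all genes 837 were past 1.5-fold higher and 1311 past 1.5-fold lower. This split depended on the scaling: it was 1136 higher and 857 lower when the median gene was set to a ratio of 0. With that scaling Zfp318 passed 1.5-fold higher (0.66) and Btg1 fell just short of 1.5-fold lower (-0.58). With each droplet thinned to 2000 UMIs, 524 genes were higher and 1163 lower, and Tob1 was at -0.54. Thinning lowers the UMIs of each gene, so fewer genes may have reached the minimum set for a gene. The number of genes compared after thinning is not given, so these counts cannot be set against 837 and 1311. Zfp318 also passed 1.5-fold when only neonatal droplets with a Y-linked UMI and no Xist UMI were kept (0.67), and Tob1 was then at -0.58. The directions of the other 8 members held under all 18 alternatives, and those of Klf6 and Satb1 are given above.

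The members related to droplet depth in different ways, and most were relatively less abundant in the deepest droplets. Depth windows started at 2000, 4000, 6000, 9000 and 14000 gene UMIs and held 124, 914, 598, 258 and 183 neonatal and 728, 1048, 625, 583 and 627 adult droplets. From the shallowest to the deepest window, 6 of 10 members were at least 1.5-fold lower in the neonatal library (18.6% of 7044 genes) and 5 of 10 in the adult library (7.75% of 9395 genes). Btg1 had the steepest course, from 3847, 3239, 2588 and 2234 to 1520 CPM in the neonatal windows and from 2324, 2108, 1688 and 1346 to 1205 CPM in the adult windows. It stepped down at every window in both libraries, with log2 ratios of deepest over shallowest of -1.34 (-1.42 to -1.26) and -0.95 (-0.99 to -0.91). Zfp318 had 122, 115, 118, 69.8 and 57.6 CPM in the neonatal and 167, 161, 139, 118 and 126 CPM in the adult windows. In the neonatal library its step lay at 9000 UMIs. Satb1 likewise dropped in the 2 deepest neonatal windows, from 402 CPM in the window from 6000 UMIs to 305 and 210 CPM.

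Klf2 and Klf6 differed between the libraries in this respect. Klf2 was nearly flat in the neonatal library (1454, 1331, 1206, 1194 and 1268 CPM) and stood apart in the 2 shallowest adult windows (2454 and 2281 CPM, then 1486, 1446 and 1454). Klf6 climbed in the neonatal library from 259 CPM in the shallowest to 437 CPM in the deepest window, and in the adult library was highest in the window from 4000 UMIs (380 CPM, against 293 to 359 CPM in the others). Compared at matched depth, the adult over neonatal ratio of Klf6 went from 0.47 and 0.57 in the 2 shallowest windows to -0.40 and -0.49 in the 2 deepest, so its level overall sums opposite differences. The ratios of Klf2 (0.20 to 0.78) and Zfp318 (0.24 to 1.13) were above 0 in all 5 windows, and those of Klf3 (-1.61 to -0.98), Foxp1 (-0.81 to -0.25), Btg1 (-0.73 to -0.34), Tob1 (-0.95 to -0.54) and Klf13 (-0.26 to -0.09) below 0 in all 5. Satb1 ranged from -0.09 to 0.66 and Btg2 from -0.33 to 0.05. The share of droplets with at least 3 of 10 B1 cell markers moved with depth as well, from 0.806% in the shallowest to 35.0% in the deepest neonatal window and from 0.137% to 18.8% in the adult library, and its part in these courses was not tested.

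**Figure D2:**
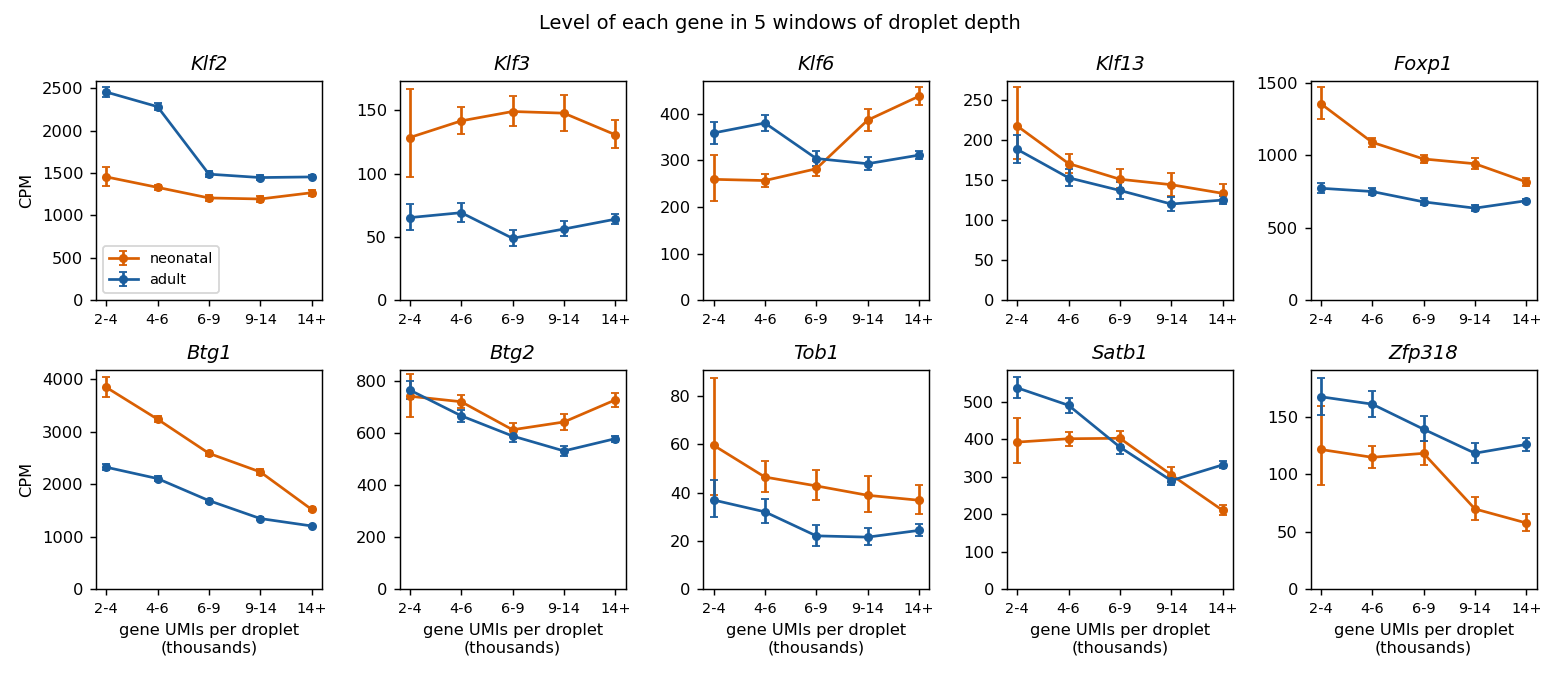
Level of each gene in CPM (vertical axes start at 0) in 5 windows of gene UMIs per droplet, in units of 1000, for the neonatal and adult library, with exact Poisson 95% intervals. Btg1 steps down from 3847 to 1520 CPM in the neonatal library and from 2324 to 1205 CPM in the adult library, and the Klf6 lines cross.

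The Ighd share of Ighd plus Ighm UMIs was lower in neonatal droplets. It was 9.54% over all UMIs (9.34 to 9.74%) in the neonatal and 18.0% (17.8 to 18.2%) in the adult library. Of droplets with at least 10 UMIs of both genes together, 2023 neonatal and 3219 adult, the median share was 8.33% (interquartile range 3.03 to 20%) and 23.5% (11.4 to 35.7%), and 17.9% and 6.96% had no Ighd UMI. Near-empty droplets had a share of 15.5% and 22.8%, from only 0.0397 and 0.0811 Ighd UMIs per droplet. Both genes are counted from their 3′ ends, and the Ighm UMIs include the secreted and the membrane form.

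Zfp318 increased with the Ighd share in both libraries. Its Spearman correlation with the share was 0.29 over 2023 neonatal droplets and 0.22 over 3219 adult droplets (Pearson 0.32 and 0.22), where droplets share a library and differ in depth. It was 0.18 in the neonatal library with Zfp318 thinned to 2000 UMIs, and 0.39 in the adult library among droplets with at least 20 Ighd plus Ighm UMIs. In quartiles of the share from lowest to highest, Zfp318 had 40.7, 70.5, 98.2 and 183 CPM in the neonatal library, 4.49-fold from lowest to highest (log2 2.17, 1.93 to 2.41). In the adult library it had 61.3, 142, 184 and 182 CPM, 2.97-fold (log2 1.57, 1.42 to 1.72). The neonatal level climbed through all quartiles and the adult level was flat from the third. The quartiles were cut in each library separately and covered unlike shares. The lowest ended at 2.99% (neonatal) and 11.4% (adult), and the highest started at 20% and 35.7%. The fold changes therefore do not compare the libraries at equal shares. Read from the other side, UMIs were pooled over droplets with and without a Zfp318 UMI at 2000 UMIs. The pooled Ighd share was 16.3% (15.6 to 17.1%) in 320 neonatal droplets with and 8.56% (8.35 to 8.76%) in 1703 without. In the adult library the pooled shares were 25.2% (24.7 to 25.7%) in 763 droplets with and 15.7% (15.5 to 15.9%) in 2456 droplets without a Zfp318 UMI. The median share per droplet was 16% with and 7.69% without in the neonatal library, and 28.6% and 21.7% in the adult library. Droplets without a Zfp318 UMI were deeper, with medians of 6115 against 5863.5 UMIs (neonatal) and 7233.5 against 6227 UMIs (adult).

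**Figure D3:**
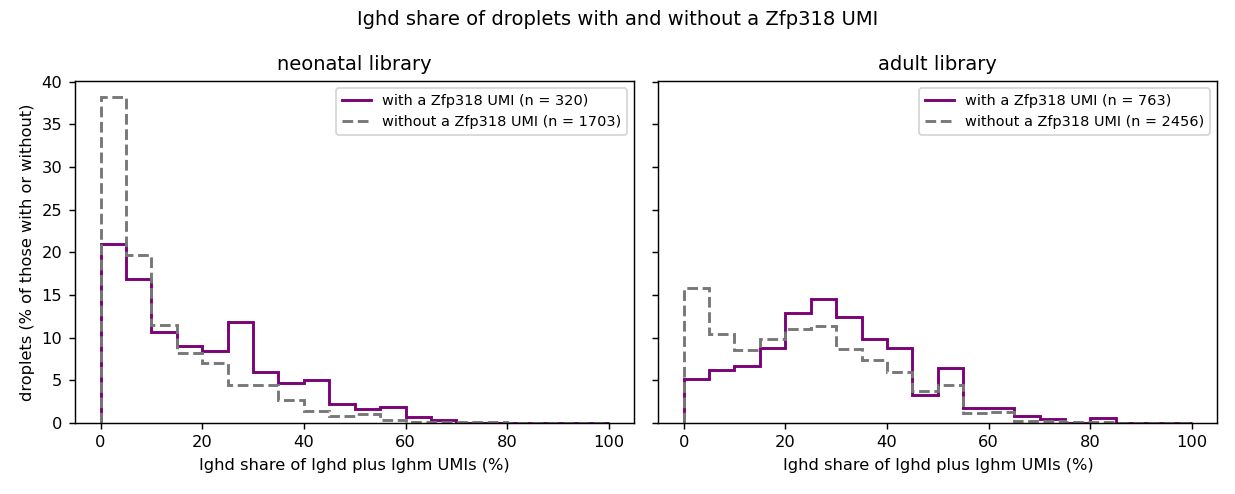
Ighd share of Ighd plus Ighm UMIs per droplet in steps of 5% for droplets with and without a Zfp318 UMI after thinning to 2000 UMIs, each as a percentage of its own droplets. In the lowest step lie 20.9% of neonatal droplets with and 38.2% without Zfp318, and 5.11% and 15.8% of adult droplets.

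At an equal Ighd share, Zfp318 differed less between the libraries than over all droplets. With bins of the share from 0, 5, 10, 20 and 30%, it had 46.6, 79.9, 102, 150.1 and 220.2 CPM in the neonatal and 37.5, 81.0, 129, 174 and 185 CPM in the adult library. The adult over neonatal ratios in these bins were -0.32, 0.02, 0.34, 0.21 and -0.25, with no constant sign, against 0.53 over all droplets. Their intervals, for counting error of the summed UMIs only, were -0.58 to -0.05, -0.22 to 0.26, 0.15 to 0.53, 0.02 to 0.40 and -0.42 to -0.08. Only the interval of the bin from 5% held 0, and variation between droplets was not part of any. Satb1 changed sign: its ratios in the bins were -0.93, -0.60, -0.24, -0.10 (-0.20 to 0.01) and -0.15, all below 0, against 0.13 over all droplets. For Klf3 the ratio in the bins stayed between -1.47 and -1.01, close to its overall -1.20, and for Btg1 it went from -1.36 in the lowest bin to -0.71 in the bin from 20%. The bins were added after the data had been seen. They were not matched for depth, which in the adult library moved with the share. In the depth windows the Satb1 ratio ran from -0.09 to 0.66.

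**Figure D4:**
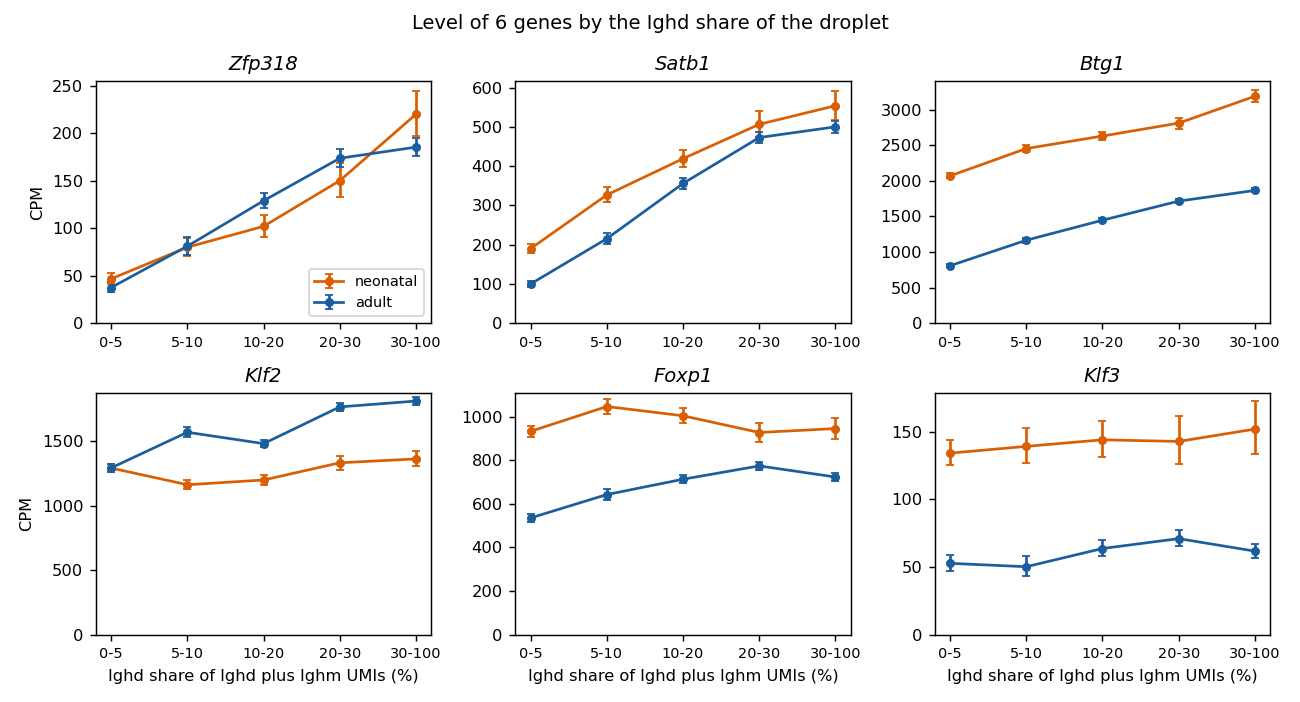
Level in CPM (vertical axes start at 0) of Zfp318, Satb1, Btg1, Klf2, Foxp1 and Klf3 in bins of the Ighd share of the droplet, in percent, for the neonatal and adult library, with exact Poisson 95% intervals. The Zfp318 lines cross, going from 46.6 (neonatal) and 37.5 CPM (adult) to 220.2 and 185 CPM, the adult Satb1 line lies below the neonatal one, and the Btg1 and Klf3 lines stay apart.

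In the adult library the relation of Zfp318 to the Ighd share was weak in shallow and strong in deep droplets. Within the 5 depth windows the Spearman correlation was 0.18, 0.07, 0.18, 0.45 and 0.62 in the adult library, over 513, 903, 600, 578 and 625 droplets, and 0.29, 0.28, 0.33, 0.22 and 0.50 in the neonatal library. The median number of Ighd plus Ighm UMIs, which sets the precision of the share, was 14 in the shallowest and 78 in the deepest adult window, and its part was not tested. In the deepest adult window Zfp318 had 47.0 CPM (41.5 to 53.1) in 239 droplets with a share under 10% and 196 CPM (185 to 208) in 236 droplets with a share of at least 20%. Without B1-marked and cycling droplets the correlation in that window was 0.57 over 476 droplets. In the window from 4000 UMIs the levels at the same shares were 114 CPM (89.7 to 144) and 164 CPM (149 to 179). Depth also moved with the share itself: the adult quartile with the lowest share had a median of 10647 UMIs and the highest 5003, against 5814 and 5953.5 in the neonatal library.

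Satb1 and Btg1 also increased with the Ighd share, and the other 7 members had correlations under 0.1 in size over all depths. Satb1 had correlations of 0.33 in both libraries, and its level went from 167 to 529 CPM in the neonatal and from 160 to 496 CPM in the adult library between the lowest and the highest quartile. Within the depth windows the adult Satb1 correlation was 0.14, 0.10, 0.23, 0.53 and 0.68 and the neonatal one 0.20, 0.33, 0.19, 0.45 and 0.60. In the window from 4000 UMIs the adult ratio of highest over lowest quartile was 0.34 (0.16 to 0.52), against 1.63 over all depths. Btg1 had correlations of 0.13 and 0.28 and went from 1961 to 2992 CPM and from 984 to 1891 CPM. Within the windows Btg1 was near 0 in the 2 shallowest (-0.03 and 0.06 neonatal, 0.05 and -0.02 adult) and reached 0.50 and 0.59 in the deepest. A correlation of at least 0.1 was found for 3 of 10 members in each library, against 2.92% of 5819 genes (neonatal) and 1.51% (adult). The same 3 were at least 1.5-fold higher in the highest than in the lowest quartile, against 6.06% of genes (neonatal) and 8.15% (adult). The remaining 7 members had correlations of -0.07 to 0.08 over all depths, too weak for a direction. Within droplets from 4000 and under 6000 UMIs, an alternative added after the data had been seen, Foxp1 decreased with the share in both libraries, with correlations of -0.14 and -0.12 and log2 ratios of highest over lowest quartile of -0.31 (-0.42 to -0.19) and -0.32 (-0.46 to -0.18). Klf6 increased with it among neonatal droplets (0.14, log2 0.64, 0.40 to 0.89) and had 0.05 among adult ones.

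By the mean correlation of both libraries with the share, Satb1 ranked 4, Zfp318 11 and Btg1 23 among 5819 genes outside the immunoglobulin loci. The ranks were taken over all depths, which were not matched, and the correlation of Btg1 was weaker within the shallow depth windows, as given above. The other genes of the top 5 were Mef2c (0.38), a transcription factor of mature B cells, Fcer2a (0.38), which encodes the follicular marker CD23, and the MHC class II genes H2-Aa (0.34) and H2-Ab1 (0.33). At the other end stood Plac8 (-0.31), Ms4a1 (-0.31), which encodes CD20, Ly6d (-0.28), S100a6 (-0.28) and Crip1 (-0.27). Among counts thinned to 2000 UMIs, the gene most like Satb1 was Ighd (Spearman 0.20 neonatal and 0.18 adult), followed by Mef2c (0.15 and 0.14) and Fchsd2 (0.14 and 0.13). The gene most like Zfp318 was Ighd too (0.14 and 0.12), followed by Mef2c (0.13 and 0.11) and Btg1 (0.09 and 0.09). These are descriptions over the droplets of each library.

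Droplets rich in immediate-early transcripts were higher in Klf2, Klf6 and Btg2 in both libraries. Droplets were ranked by the summed UMIs of 20 immediate-early genes (Fos, Jun, Egr, Nr4a and others) at 2000 UMIs, and the highest quartile (559 neonatal and 920 adult droplets) was set against the lowest (521 and 989). In the neonatal library 3 of 10 members were at least 1.5-fold higher, against 4.5% of genes, and in the adult library 8 of 10, against 6.86% of genes. Btg2 had 491 CPM in the lowest and 947 CPM in the highest neonatal quartile (log2 0.95, 0.87 to 1.02), and 407 and 839 CPM in the adult quartiles (1.04, 0.99 to 1.10). Klf6 had 254 and 430 CPM in the neonatal quartiles (0.76) and 220 and 419 CPM in the adult quartiles (0.93). Klf2 had 1014 and 1604 CPM (0.66) and 1016 and 2444 CPM (1.27). The lowest quartiles, cut in each library separately, had nearly the same Klf2 level over all depths. With quartiles cut among droplets from 4000 and under 6000 UMIs, the lowest had 1170 CPM (neonatal) and 1491 CPM (adult). That is a log2 ratio of adult over neonatal of 0.35 (0.25 to 0.45).

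In the adult library Tob1 (1.06), Klf3 (0.89), Satb1 (0.82), Klf13 (0.63) and Zfp318 (0.59) were past 1.5-fold as well, and Btg1 (0.50) and Foxp1 (0.39) were not. The neonatal values of these 7 members ran from 0.12 for Foxp1 and Btg1 to 0.39 for Satb1. Depth differed too: the lowest adult quartile had a median of 7003 UMIs and the highest 4860, while the neonatal quartiles had 6130 and 5957. Within droplets from 4000 and under 6000 UMIs, an alternative added after the data had been seen, the adult differences were 1.07 for Klf2, 0.96 (0.24 to 1.72) for Tob1, 0.73 for Klf6, 0.67 for Klf3 and 0.64 for Btg2, and the neonatal ones 0.86 for Klf6, 0.70 for Zfp318, 0.53 for Klf2 and 0.52 for Btg2. At this matched depth adult Satb1 (0.48), Zfp318 (0.46) and Klf13 (0.45) and neonatal Klf2 and Btg2 no longer passed 1.5-fold, so that only Klf6, of the members past 1.5-fold in both libraries over all depths, passed in both. Among thinned counts, the genes most like Btg2 were the immediate-early genes Jund (0.14 and 0.15), Junb (0.14 and 0.13) and Ier2 (0.12 and 0.16). Those most like Klf2 were Tsc22d3 (0.16 and 0.25), a glucocorticoid-induced gene, Klf6 (0.15 and 0.20) and Jund (0.12 and 0.31).

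Cycling droplets, which were few, had less of nearly every member. In the adult library 37 droplets held at least 3 of 20 cycling genes at 2000 UMIs, and 10 of 10 members were at least 1.5-fold lower in them, against 25.6% of genes. Satb1 had 108 CPM in these and 376 CPM in the other adult droplets (log2 -1.80, -2.08 to -1.54), Btg1 469 and 1541 CPM (-1.71, -1.84 to -1.59) and Klf2 689 and 1679 CPM (-1.29, -1.39 to -1.18). In the neonatal library only 16 droplets passed, too few for a value by the fixed minimum of 20. With at least 2 cycling genes, a limit set after the data had been seen, 24 neonatal droplets passed and 8 of 10 members were at least 1.5-fold lower, against 29.5% of genes, while Klf6 (-0.24) and Klf2 (-0.57) were not. In the adult library that limit gave 56 droplets and 10 of 10 members, against 23.4% of genes. The neonatal cycling droplets stood apart by their Ighm, with 15358 CPM against 4071 CPM. They had a median of 27279.5 UMIs, against 5975 in the rest, and the 37 adult droplets 26157 against 6053, and the part of depth was not tested.

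B1-marked droplets had less Satb1, Zfp318 and Btg1 than the rest in both libraries. At least 3 of 10 B1 markers were present at 2000 UMIs in 103 neonatal (4.96%) and 207 adult droplets (5.73%). In each library 3 of 10 members were at least 1.5-fold lower in them, the 3 that followed the Ighd share, against 14.1% of genes (neonatal) and 8.18% (adult). Satb1 had 140 CPM in the B1-marked and 362 CPM in the other neonatal droplets (-1.37, -1.55 to -1.20), and 195 and 390 CPM in the adult droplets (-1.0, -1.11 to -0.89). Zfp318 had 45.2 and 99.9 CPM (-1.14) and 84.2 and 141 CPM (-0.74). Btg1 was at -1.07 and -0.75. Ighd was lower there too, at -1.44 and -1.08. Klf6 was higher in neonatal B1-marked droplets, with 528 CPM against 305 CPM (0.79, 0.69 to 0.89), and level in adult ones (0.01, -0.07 to 0.10).

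Median depths of B1-marked droplets were 15368 (neonatal) and 15031 UMIs (adult), above the 5898 and 5694.5 of the rest. Within droplets of at least 14000 UMIs, added after the data had been seen, Satb1 stayed lower at -0.95 (-1.17 to -0.72) in the neonatal and -0.64 (-0.76 to -0.53) in the adult library, Zfp318 at -0.57 (-0.99 to -0.16) and -0.53 (-0.72 to -0.35), and Btg1 at -0.59 and -0.43. Klf6 was at 0.54 (0.41 to 0.67) in the neonatal library. Each of these differences was smaller than over all depths. At this depth Satb1 still passed 1.5-fold in both libraries, Btg1 only just and in the neonatal library alone, and Zfp318 in neither.

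**Figure D5:**
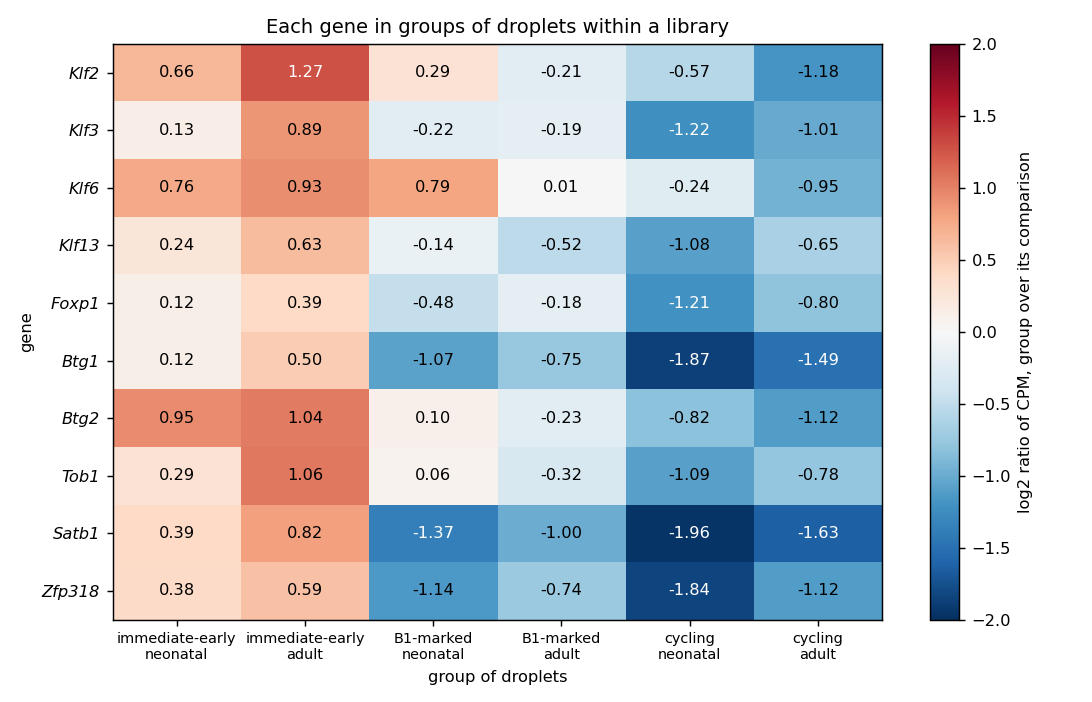
Log2 ratio of the level of each gene, written in each cell and colored from lower (blue) to higher (red), for the highest over the lowest quartile of immediate-early UMIs, for B1-marked over other droplets and for droplets with at least 2 cycling genes over the others, in each library. All 20 values in the cycling columns are below 0, and all 20 in the immediate-early columns above 0.

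Transcripts of mature and of immature B cells marked differences under 1.5-fold among the members, except for neonatal Satb1. Droplets with both Cr2 and Fcer2a, which encode CD21 and CD23 of mature B cells, numbered 36 (neonatal) and 312 (adult). They had more Satb1 (596 against 331 CPM, 0.85, 0.61 to 1.08, neonatal; 454 against 360 CPM, 0.33, adult) and more Zfp318 (134 against 92.6 CPM, 0.54, 0.00 to 1.03; 172 against 131 CPM, 0.39). The other 8 members lay between -0.53 and 0.25 in the neonatal and between -0.15 and 0.19 in the adult library. Droplets with Vpreb3, a gene of B cell precursors that stays on in immature B cells, but with neither Cr2 nor Fcer2a, numbered 720 and 465. There Btg1 was higher by 0.28 in both libraries. Zfp318 was lower in the neonatal (81.8 against 98.2 CPM, -0.26) and higher in the adult library (157 against 132 CPM, 0.25), and Satb1 likewise had opposite signs (-0.12 and 0.29). Ighd had opposite signs too, with 434 against 490 CPM (-0.18) in the neonatal and 782 against 706 CPM (0.15) in the adult library. The adult droplets of this group are therefore not named immature here. The median depths of the group were 5356 and 4747 UMIs, against 6361 and 6456 in the rest.

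Among themselves the members were only weakly correlated within a library. Over the 45 pairs, thinned counts had a median Spearman correlation of 0.02 (neonatal) and 0.05 (adult). At least 0.1 was reached by 3 neonatal and 6 adult pairs. Klf2 with Klf6 had 0.15 and 0.20, the highest neonatal value. Btg1 with Satb1 had 0.10 and 0.20, the highest adult value, while Foxp1 with Btg1 (0.11) and Satb1 with Zfp318 (0.11) stood above it among neonatal droplets. Klf2 with Btg1 had -0.06 among neonatal and 0.12 among adult droplets. The genes most like Btg1 were Ebf1 (0.21 and 0.23), a B lineage transcription factor, H3f3a (0.17 and 0.20) and Vpreb3 (0.14 and 0.14), and those most like Foxp1 were Ebf1 (0.12 and 0.12), Btg1 (0.11 and 0.09) and Jund (0.09 and 0.11). For Klf6 the next after Klf2 was Gpr183 (0.08 and 0.08). For Klf3 (led by Jund), Klf13 (led by Ets1) and Tob1 (led by Klf2) no gene reached 0.1 in both libraries.

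Other genes of the pathways were compared between the libraries for context, from lists drawn up by known function with earlier results of these data known. Each count below is to be read against the 7.82% of all genes that were at least 1.5-fold higher and the 12.2% that were at least 1.5-fold lower. Of 27 further quiescence and cell cycle brake genes with enough UMIs, 1 was at least 1.5-fold higher in the adult library and 6 lower, with a median ratio of -0.36 against -0.13 for all genes (7.82% higher and 12.2% lower). Cdkn2c, an inhibitor of CDK4 and CDK6, was higher (6.46 and 10.8 CPM, 0.74), and Klf4 (250 and 114 CPM, -1.13), its relative Klf10 (19.3 and 10.8 CPM, -0.84) and Cdkn2d (64.6 and 32.7 CPM, -0.98) led the lower ones. Of 15 CCR4-NOT and poly(A) genes, which the BTG and TOB proteins work with, 0 were higher and 2 lower, namely Cnot8 (43.6 and 23.5 CPM, -0.89) and Cnot6 (59.1 and 38.6 CPM, -0.62), with a list median of -0.25. That count is near the 12.2% of all genes that were lower.

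Of 9 genes described as dependent on KLF2 or FOXO1, most of them trafficking genes, 0 were at least 1.5-fold higher (7.82% of all genes). At least 1.5-fold lower were 5 (12.2% of all genes), with a list median of -0.69, while Klf2 itself was higher. The gap was widest for Il7r (7.86 and 1.85 CPM, -2.09), a cytokine receptor gene that was sparse, with 129 and 64 UMIs. It was followed by Ccr7 (1103 and 471 CPM, -1.23), the receptor that guides cells to lymph nodes, and S1pr4 (81.6 and 34.9 CPM, -1.23). S1pr1, the egress receptor that KLF2 is known to activate, had 359 and 178 CPM (-1.01). Itgb7, an integrin chain of homing to the gut, had 80.9 and 115 CPM (0.50), which did not pass 1.5-fold. Foxo1, counted with the quiescence genes, had 147 and 106 CPM (-0.47).

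None of 13 genes of Ighm and Ighd RNA processing passed 1.5-fold in either direction (median -0.23), where 7.82% of all genes were higher and 12.2% lower, so few would be past it in a list of this length. Ell2, an elongation factor that favors the secreted form of Ighm mRNA in plasma cells, had 36.8 and 49.6 CPM (0.43, 0.30 to 0.57). Of 20 immediate-early genes 0 were higher and 9 lower (7.82% and 12.2% of all genes), with a median of -0.43, led by Atf3 (218 and 102 CPM, -1.09), Fosb (300.1 and 151 CPM, -0.99) and Dusp2 (436 and 242 CPM, -0.85). Of 20 cycling genes 1, Tk1 (4.08 and 6.47 CPM, 0.66), was higher and 5 lower (7.82% and 12.2% of all genes), with a median of -0.39 and with Ccnb1 (-1.09), Aurkb (-0.95) and Ube2c (-0.84) lowest.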

How the data were processed

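Each age gave 1 library of sorted heart B cells, made with 10x Chromium 3′ v3 kits. The authors deposited UMI counts as raw values for each gene and barcode, with every barcode of the kit and no normalization or filter, made with Cell Ranger on the build mm10 (3.0.2 in the file headers; the Methods name another version). The 3 antibody rows held 3 and 2 UMIs and were not used. Groups were taken from the age labels. The sort excluded doublets per the labels; no doublet caller was run here, and an alternative left out droplets above the 95th percentile of UMIs.

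UMIs were summed over droplets passing the rule and divided by their total, with scipy 1.17.1, pandas 2.3.3 and numpy 2.4.6 under Python 3.11.15 (plots: matplotlib 3.10.9). CPM have exact Poisson, ratios conditional binomial and shares Clopper-Pearson 95% intervals. PCR and sampling of mice are not covered by them. The intervals of CPM, ratios and pooled Ighd shares, from summed UMIs, do not cover variation between droplets either. Shares of droplets with a UMI (unless given as sequenced) and droplet groups by marker or immediate-early genes used counts thinned without replacement to 2000 UMIs. The Ighd share, its quartiles and bins and the depth windows used counts as sequenced. Past 1.5-fold counts as called, among genes with at least 50 UMIs. Correlations under 0.1 in size were read as no direction. The named genes were the 10 members, up to 3 genes per list and direction past 1.5-fold, the 5 highest and 5 lowest for the Ighd share, and the 3 most like each member. Genes of the lists named beyond that (S1pr1, Itgb7, Foxo1 and Ell2) were chosen after their values were seen. Some genes of the lists are not reported here by name. The members and lists were chosen with earlier results of these data known. Of 31053 gene identifiers, 99.6% were found in the GENCODE annotation. The calculations were tested on simulated data. Each alternative changed 1 choice (UMI minimum, mitochondrial limit, B cell markers, scaling, depth, sex, droplets left out or free RNA).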

Additional observations from a re-analysis of the deposited data

Results flagged for a closer look

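Droplets outside the rule with over 10% mitochondrial UMIs gave 1 value that stood apart. In 1841 adult droplets with at least 500 gene UMIs and over 10% mitochondrial UMIs, Satb1 had 605 CPM (580.1 to 631), against 368 CPM in the adult droplets of the rule, a log2 difference of 0.72 (0.65 to 0.78). In the 1050 neonatal droplets of that kind it had 468 CPM against 335 CPM (0.48, 0.40 to 0.57). The other members differed by 0.22 to 0.54 in the adult and by -0.12 to 0.27 in the neonatal library. These comparisons were not matched for depth. The 1841 adult droplets held 3558215 gene UMIs in all, against 34623240 in the 3611 adult droplets of the rule. In the shallowest depth window of the rule, from 2000 UMIs, Satb1 had 537 CPM (509 to 566) in the adult and 392 CPM (336 to 456) in the neonatal library. The part of depth in the Satb1 differences was not tested.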

How the results depend on the processing

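Every count of members past 1.5-fold rests on 1 library per age. The count of members at least 1.5-fold higher in the adult library was 1 (Zfp318) with median-of-ratios scaling, with a total without immunoglobulin, mitochondrial and ribosomal protein genes, as the mean of the depth windows and with neonatal male droplets only. Over all genes, 857 were lower with median-of-ratios scaling, 524 higher after thinning to 2000 UMIs, and 3230 higher and 3934 lower with no filter beyond 1 UMI. With no filter more genes were compared, and after thinning fewer may have been. The numbers of genes compared are not given for thinning and for no filter, so the counts of these alternatives cannot be set against those of the main setting. Median-of-ratios scaling compared the same genes as the main setting, where 1311 were lower. The correlation of Zfp318 with the Ighd share was 0.18 in the neonatal library with Zfp318 thinned to 2000 UMIs, and 0.39 in the adult library with at least 20 Ighd plus Ighm UMIs; under the other alternatives it was 0.29 to 0.32 and 0.17 to 0.30. The cause was not tested. No direction of a called value reversed. For the neonatal Klf3, the deepest over shallowest window was -0.88 with a mitochondrial limit of 7%, against 0.02. The order of the libraries in the share of droplets with a UMI was the same at 1000 UMIs for all 10 members. Tob1, the sparsest member, had the widest counting interval. No paired analysis was possible because each age had 1 library.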
